A study of Mus musculus with 12 samples.

Results

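The genes described here are 10 nuclear receptor genes that bone marrow-derived macrophages can express: the retinoic acid receptors Rara and Rarg, the retinoid X receptors Rxra and Rxrb, the peroxisome proliferator-activated receptors Pparg and Ppard, the liver X receptors Nr1h2 and Nr1h3, the REV-ERB beta gene Nr1d2 and the vitamin D receptor gene Vdr. They were taken by name, and each symbol matched 1 row of a table of 56980 genes. All 10 passed the filter on low counts and were among the 15110 genes tested. Vdr was near the limit of detection, with 16 to 52 counts per library, while the other 9 genes had between 262 and 9713 counts.

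RNA was sequenced from mouse macrophages that had been grown out of bone marrow for 7 days in L929-conditioned medium, which supplies the growth factor that macrophages need. The donor mice were wild-type (WT) or were labelled RankCre-Regnaes3cKO (cKO), read here as a conditional knockout of Regnase-3, the zinc finger protein encoded by Zc3h12c, with Cre driven by the gene of the receptor RANK, Tnfrsf11a. Cultures were unstimulated (M0) or received lipopolysaccharide (LPS) at 100 ng/ml with interferon-gamma at 10 ng/ml (M1), and the stated question was what Regnase-3 does when Rank-positive macrophages polarize. The 4 groups, WT_M0, cKO_M0, WT_M1 and cKO_M1, held 3 libraries each, numbered 4 to 6, 1 to 3, 10 to 12 and 7 to 9. The labels do not give the stimulation time, the strain or age of the mice, or whether WT mice carried Cre or the floxed allele. They also do not say whether the libraries of a group came from separate mice, or whether M0 and M1 cultures shared mice. The p-values therefore cover only the variation among libraries, which may be technical.

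Nuclear receptors are transcription factors that bind small lipid-soluble ligands and DNA. Retinoic acid receptors, PPARs, liver X receptors (LXRs) and the vitamin D receptor bind DNA as pairs with a retinoid X receptor, usually at repeats of a short element, the half-site, whereas REV-ERB proteins bind a half-site mostly as single molecules and repress clock genes. In macrophages, LXRs respond to oxidised cholesterol and raise cholesterol export, PPAR gamma favours lipid uptake and an alternatively activated state, PPAR delta fatty acid oxidation, and retinoic acid and vitamin D shape differentiation and antimicrobial responses.

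The upstream sequences of 5 of the genes are shown so that their half-site and other short motifs can be seen. They are the 250 bases before an annotated start site, from RefSeq on build GRCm38.p6, which is not the build of the counts, and each is written 5′ to 3′ in the direction of its gene. RefSeq's table held 19 promoters for the 10 genes, and the counts do not say which start site was used. Capitals mark a match to the half-site AGGTCA or its complement, or to the E-box CACGTG, the element bound by CLOCK and its partner. Shown are Nr1h3, which rose most in M1, Pparg, which fell, the retinoic acid receptor genes Rara and Rarg, which both differed between genotypes in M1, and Nr1d2, which was lowest in cKO M1.
Nr1h3, chr2:91195117-91195366, minus strand: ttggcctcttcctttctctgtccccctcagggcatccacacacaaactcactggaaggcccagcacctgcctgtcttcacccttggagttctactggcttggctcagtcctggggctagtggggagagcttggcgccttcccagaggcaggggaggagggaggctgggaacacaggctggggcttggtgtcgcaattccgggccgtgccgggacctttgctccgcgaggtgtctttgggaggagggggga
Pparg, chr6:115362099-115362348, plus strand: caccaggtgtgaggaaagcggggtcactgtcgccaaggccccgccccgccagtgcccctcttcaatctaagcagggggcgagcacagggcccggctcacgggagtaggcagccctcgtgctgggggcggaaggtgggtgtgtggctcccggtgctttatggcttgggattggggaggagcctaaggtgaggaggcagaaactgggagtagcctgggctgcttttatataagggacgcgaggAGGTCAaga
Rara, chr11:98937468-98937717, plus strand: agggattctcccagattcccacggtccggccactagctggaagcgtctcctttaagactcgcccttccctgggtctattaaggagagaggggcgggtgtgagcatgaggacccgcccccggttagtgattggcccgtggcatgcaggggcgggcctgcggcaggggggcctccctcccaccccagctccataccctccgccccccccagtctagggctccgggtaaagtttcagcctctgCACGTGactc
Rarg, chr15:102257523-102257772, minus strand: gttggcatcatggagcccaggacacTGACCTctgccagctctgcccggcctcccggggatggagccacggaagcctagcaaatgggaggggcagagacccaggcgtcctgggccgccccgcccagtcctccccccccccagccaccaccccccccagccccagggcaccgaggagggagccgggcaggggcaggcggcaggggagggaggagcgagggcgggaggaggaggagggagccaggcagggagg
Nr1d2, chr14:18239107-18239356, minus strand: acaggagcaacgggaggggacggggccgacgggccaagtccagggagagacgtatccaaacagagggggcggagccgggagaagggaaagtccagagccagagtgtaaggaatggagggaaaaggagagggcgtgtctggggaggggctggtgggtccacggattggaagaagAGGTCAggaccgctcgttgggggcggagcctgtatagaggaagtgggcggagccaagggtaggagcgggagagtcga

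In Nr1d2 the half-site began 77 bases upstream of the start, in the Pparg promoter shown 9 bases and in Rarg, on the opposite strand, 225 bases upstream. The E-box of Rara began 10 bases upstream. In windows of 300 bases, which add the first 50 transcribed bases, a half-site stood in 6 of the 19 promoters, from Rxra, Pparg, Rara, Nr1d2 and Rarg, beside 16.26% of all 32851 promoters in the table. The E-box stood in 2 overlapping promoters of Rara, beside 7.15% of all. The interferon-gamma activated site TTCNNNGAA stood in 1 other promoter of Rara, beside 8.298%, and the NF-kB motif GGGANTTCC in none, beside 1.677%; all motifs were searched on both strands. None of the 19 held the half-site preceded by T that REV-ERB proteins prefer, which 2.606% of all promoters held, or a direct repeat of half-sites with 1, 4 or 5 bases between them. These are matches of letters in the windows searched and do not show binding.

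Library totals lay between 41721452 and 42197986 counts. The summed level of 8 macrophage markers was 14093 to 19066 CPM in all libraries. CPM are the counts of a gene scaled to a common library size, with edgeR's TMM factors. The sum of 10 markers of M1 stimulation rose from 113 to 167 CPM in M0 to 9840 to 13543 CPM in M1. In M1 this sum was higher in cKO without overlap, at 9840 to 10370 CPM in WT_M1 and 12714 to 13543 CPM in cKO_M1. Of these 10 markers, 5 were higher and 1 lower in cKO_M1 (edgeR, adjusted p under 0.05). The part of this gap in the other genotype differences in M1 was not tested. Zc3h12c was 16.4 ± 0.773 CPM (SD, n = 3) in WT_M0 and 15.6 ± 2.57 in cKO_M0 (adjusted p = 0.810) and 176 ± 16.6 in WT_M1 and 110 ± 15.2 in cKO_M1 (adjusted p = 0.00101), so that the knockout label was matched by a lower level in M1 alone, while Tnfrsf11a did not pass the test in either state. The exons removed by the knockout are not named in the labels, and a count over the whole gene cannot check them. Markers of other cell types that were lower in cKO without overlap in both states were those of osteoclasts and of stromal cells and osteoblasts. Of osteoclasts, cells that also form from RANK-positive precursors, the 8 listed genes summed to 291 to 313 CPM in WT_M0, 182 to 249 in cKO_M0, 209 to 262 in WT_M1 and 105 to 146 in cKO_M1, and none was at 0 in all libraries. The 8 stromal and osteoblast markers summed to 0.160 to 3.50, 0.0393 to 0.155, 2.04 to 2.34 and 1.19 to 1.96 CPM in the same order. These sums were low and nearly touched in M0. Only 1 of the 8 genes had enough counts to be tested, and it passed in neither state. The 7 B and plasma cell markers, mostly Ighm, summed to 53.7 to 70.6, 32.9 to 62.4, 3.16 to 5.2 and 0.341 to 0.766 CPM in the same order. In RNA from whole cultures, fewer cells of a type and less RNA per cell cannot be told apart.

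M1 stimulation changed most of the receptor genes, in both directions. In WT macrophages 4 of the 10 genes rose, the LXR genes Nr1h3 and Nr1h2, Ppard and Rxra, and 4 fell, Pparg, Rara, Rarg and Rxrb, at an adjusted p under 0.05. In the same comparison 71.4% of all tested genes passed, 34.2% higher and 37.1% lower, so 8 of 10 is near the background. The libraries of the same 8 genes did not overlap between the states, as was so for 75.6% of all tested genes, 36% higher and 39.6% lower. In cKO macrophages 7 of 10 passed, beside 70.2% of all genes, with the same 4 genes higher, beside 34.2%, and Pparg, Rxrb and Nr1d2 lower, beside 36%. In cKO 8 of 10 did not overlap, these 7 and Vdr, beside 72.7% of all genes, 35% higher and 37.6% lower. The median log2 fold change of the 10 genes was 0.07 in WT and 0.18 in cKO, beside -0.07 and -0.04 for all tested genes. Scaling by library totals alone moved the medians of all genes to -0.65 and -0.58, and the directions of Rxra in both genotypes, of Nr1d2 in WT and of Vdr in cKO flipped under that scaling. It left 3 of the 10 genes called higher and 5 lower in each genotype, and among all tested genes in WT 2769 higher and 9000 lower, in place of 5175 and 5612.

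Both LXR genes rose, and of the 10 genes Nr1h3 rose most. Nr1h3, which encodes LXR alpha, stood at 29.2, 26.4 and 28.3 CPM in the WT_M0 libraries and at 249, 292 and 261 CPM in WT_M1. In cKO it went from 22.8, 23.5 and 28.5 CPM to 256, 241 and 220 CPM. All M1 libraries were thus far above all M0 libraries in both genotypes. The rise was 9.56-fold in WT (log2 fold change 3.26, SE 0.105, adjusted p = 3.2e-13) and 9.59-fold in cKO (3.26, SE 0.105, adjusted p = 2.97e-13), and the difference between the genotypes in this response had a 95% interval of -0.29 to 0.30 log2 units. By the GENCODE M21 annotation, 34 of its exonic bases overlap the same-strand transcript gene Gm13783, 1.352% of its exons.

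Nr1h2, which encodes the widely expressed LXR beta, also rose without overlap between the states. Its levels were 83.0, 87.9 and 82.8 CPM in WT_M0 and 152, 165 and 167 CPM in WT_M1, a 1.91-fold rise (log2 fold change 0.93, SE 0.0748). In cKO they went from 65.3, 72.9 and 75.1 CPM to 165, 161 and 169 CPM, a 2.32-fold rise (1.21, SE 0.0753).

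The PPAR genes moved in opposite directions. Pparg, the PPAR of fat cells and of alternatively activated macrophages, fell from 51.8, 58.2 and 49.5 CPM in WT_M0 to 31.0, 26.3 and 28.6 CPM in WT_M1 (log2 fold change -0.89, SE 0.0905, adjusted p = 2.65e-07). In cKO it fell from 51.3, 55.4 and 59.8 CPM to 22.9, 24.1 and 24.2 CPM (-1.23, SE 0.0913, adjusted p = 6.94e-09). Every M1 library lay below every M0 library. The 7 adipocyte markers summed to at most 0.160 CPM in any library. Ppard, which encodes PPAR delta, rose from 28.7, 26.9 and 30.3 CPM to 64.7, 80.6 and 78.5 CPM in WT, or 2.61-fold, and from 21.4, 20.2 and 20.6 CPM to 52.3, 59.2 and 65.1 CPM in cKO, or 2.84-fold. The lowest M1 value of Ppard was above the highest M0 value in both genotypes.

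The shared partners of these receptors changed less. Rxra stood at 57.3, 58.5 and 66.1 CPM in WT_M0 and 69.2, 86.5 and 79.8 CPM in WT_M1, a 1.29-fold rise (adjusted p = 0.0196). In cKO it went from 47.3, 62.2 and 57.9 CPM to 63.7, 64.3 and 88.1 CPM (1.29-fold, adjusted p = 0.0209). The groups did not overlap, but the gap was narrow: without WT_M0 replicate 4 or 5 or WT_M1 replicate 11 the adjusted p reached up to 0.0702, and without cKO_M0 replicate 1 or cKO_M1 replicate 9 up to 0.128. Rxrb, the second retinoid X receptor, fell from 47.4, 43.3 and 48.0 CPM to 26.5, 33.6 and 30.4 CPM in WT, or 1.53-fold, and from 40.4, 39.5 and 40.2 CPM to 34.3, 31.1 and 28.7 CPM in cKO, or 1.28-fold, with no overlap in either.

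The retinoic acid receptor genes fell in WT. Rarg went from 18.5, 16.7 and 19.1 CPM in WT_M0 to 8.28, 7.87 and 8.03 CPM in WT_M1 (log2 fold change -1.16, SE 0.0925, adjusted p = 1.45e-08). In cKO the values were 13.5, 13.7 and 13.8 CPM in M0 and 13.0, 13.4 and 14.1 CPM in M1, so the M0 range lay within the M1 range (-0.02, 95% interval -0.21 to 0.18). Rara went from 21.7, 25.2 and 25.4 CPM to 15.1, 11.5 and 17.4 CPM in WT (-0.72, SE 0.138, adjusted p = 0.000236). In cKO Rara was at 20.5, 26.8 and 23.5 CPM in M0 and 21.2, 21.4 and 23.9 CPM in M1, which overlap (-0.09, 95% interval -0.38 to 0.20). Scaled by library totals alone, Rara and Rarg were called lower in cKO M1 too, at -0.63 and -0.55.

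Nr1d2, a repressor in the circadian clock, did not pass in WT, at 46.0, 47.6 and 48.4 CPM in M0 and 50.9, 65.7 and 46.9 CPM in M1, where the third M1 library lay within the M0 range. In cKO it fell from 44.4, 35.4 and 37.9 CPM to 25.8, 23.5 and 29.9 CPM, below every M0 library (log2 fold change -0.57, SE 0.126, adjusted p = 0.000787). Vdr lay between 0.315 and 1.04 CPM in all 12 libraries and passed in no comparison; the counts of 16 to 52 leave 95% intervals as wide as -0.87 to 0.75 log2 units in WT and -0.26 to 1.3 in cKO.

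**Figure D1:**
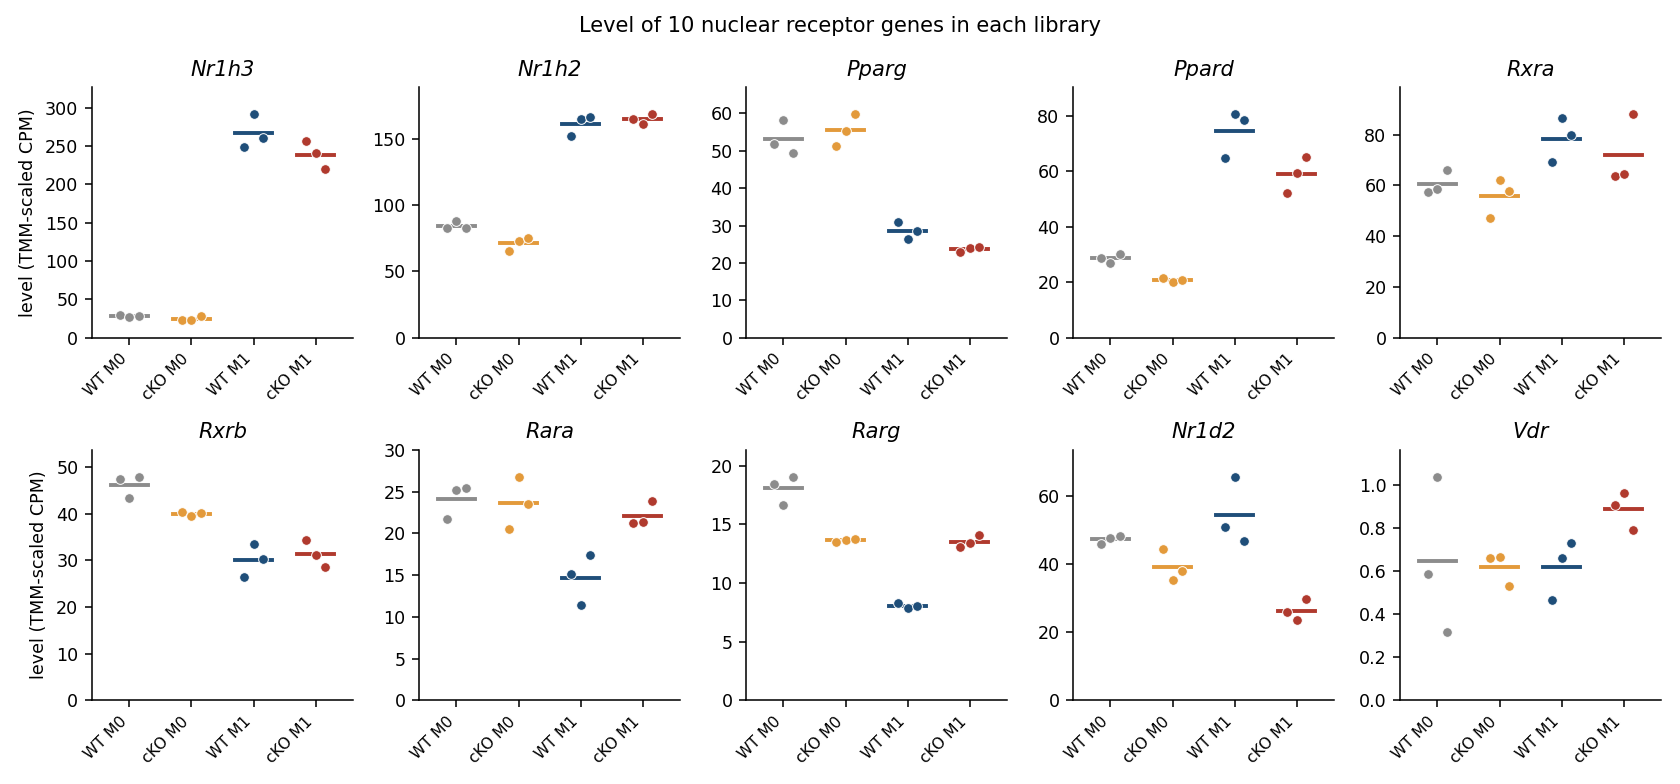
Level of the 10 receptor genes in each library, as TMM-scaled CPM on axes that start at 0; points are libraries and bars the mean of the 3 libraries of a group. Nr1h3, Nr1h2 and Ppard are higher in all M1 than in all M0 libraries, Pparg is lower, and Nr1d2 is lowest in cKO M1 at 23.5 to 29.9 CPM.

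**Figure D2:**
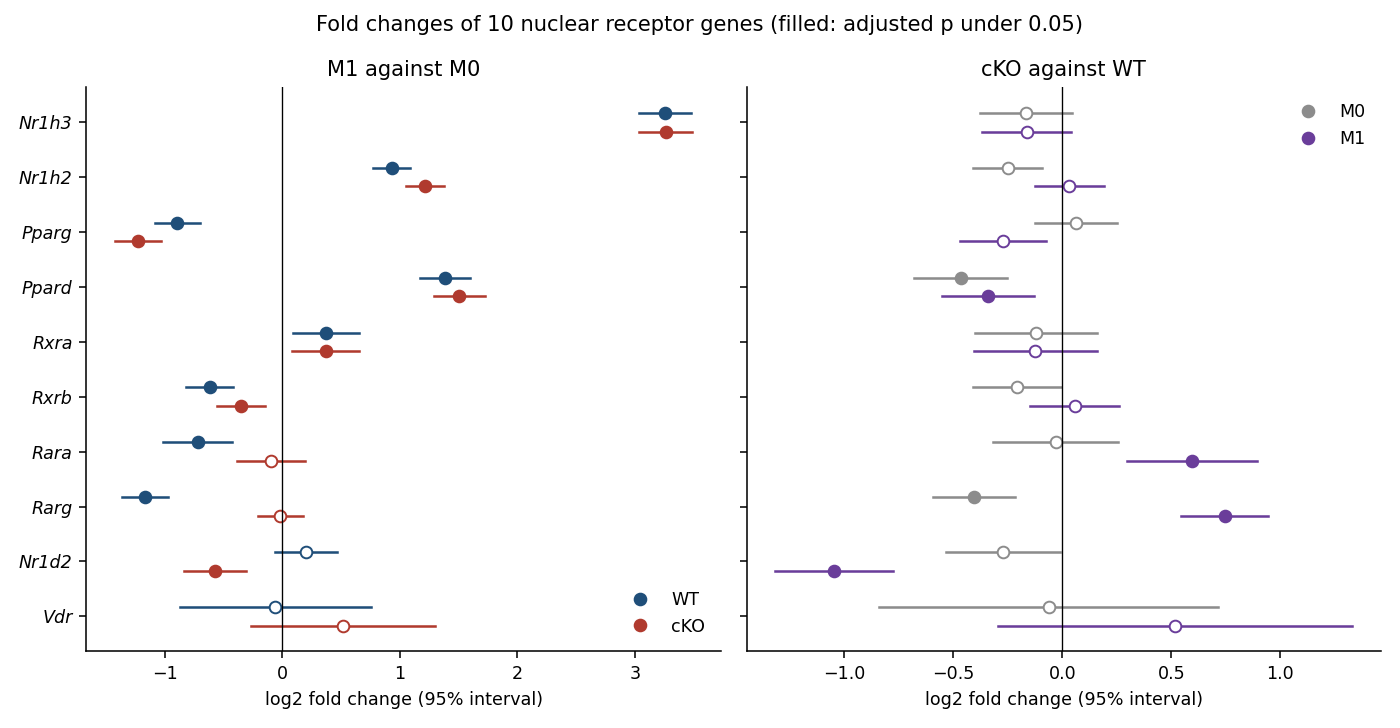
Log2 fold changes of the 10 receptor genes with 95% intervals, for M1 against M0 in each genotype (left) and cKO against WT in each state (right); filled points have an adjusted p under 0.05. Rara and Rarg lie at or near 0 in cKO on the left and above 0 in M1 on the right, and Nr1d2 lies at -1.05 in M1.

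Because Rara to Vdr differ in length, their levels were compared as CPM per kilobase of the deposited gene length. For Rxra that length was 6303 bases, beside 5462 exonic bases by GENCODE M21, so its place in the order depends on the length used. In WT_M0 the order began with Nr1h2 at 25.2 ± 0.856 (SD, n = 3) and Pparg at 18.0 ± 1.52 CPM per kilobase, whose libraries did not overlap. Rxrb at 11.6 and Nr1h3 at 11.1 overlapped and were followed by Rxra, Nr1d2 and Rara, each separate from the next, then by Rarg and Ppard, which overlapped, and Vdr at 0.114. In WT_M1 Nr1h3 led at 106 ± 8.72, ahead of Nr1h2 at 48.1 ± 2.41 and Rxra at 12.5 ± 1.38. Rxra, Nr1d2, Ppard and Pparg, from 12.5 down to 9.69, could not be ordered beyond the spread of neighbouring genes. The order in cKO_M0 was the same as in WT_M0, but more neighbours overlapped, and in cKO_M1 Nr1d2, at 4.88 CPM per kilobase, stood lower in the order than in WT_M1.

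The 2 LXR genes together made up 36.5% to 37.6% of the summed level per kilobase of the 10 genes in WT_M0 and 73.6% to 73.8% in WT_M1. In cKO their share was 34.6% to 36.8% in M0 and 72.4% to 76.5% in M1. Nr1h3 alone made up 49.8% to 51.9% in WT_M1, from 10.6% to 12% in WT_M0. The 2 PPAR genes went from 21.1% to 23.5% down to 8.78% to 9.74% in WT, and the 2 retinoid X receptor genes from 20.4% to 22.9% down to 8.99% to 9.91%. These shares are taken within a library, so they do not depend on the scaling between libraries. The retinoic acid receptor genes held 2.0% to 2.81% in WT_M1 and 4.01% to 4.61% in cKO_M1, which do not overlap, and Nr1d2 held 4.15% to 5.43% and 2.28% to 2.90%.

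**Figure D3:**
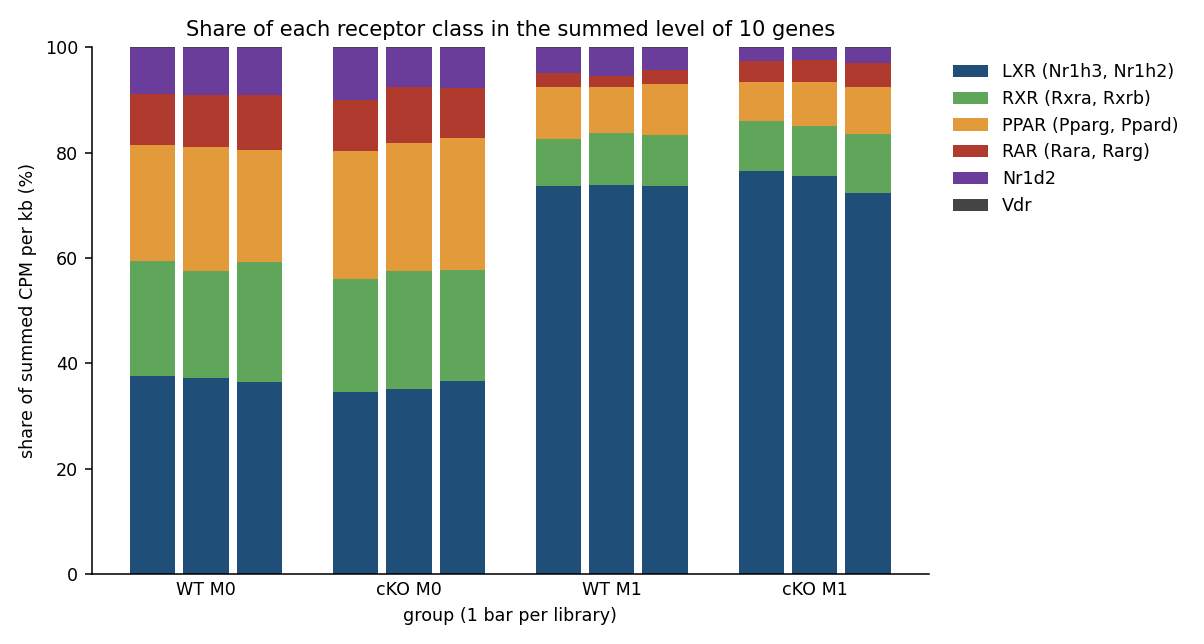
Share of each receptor class in the summed level per kilobase of the 10 genes, in percent, with 1 stacked bar per library and 3 libraries per group; Vdr is too low to be seen. The LXR part is 34.6% to 37.6% in the M0 libraries and 72.4% to 76.5% in the M1 libraries.

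Within 3 of 4 pairs of related receptors the balance shifted with stimulation: by the deposited lengths, Nr1h3 and Rxra went from below to above their partners, and Pparg from above Ppard to about its level. The place of Rxra below Rxrb in M0 rests on the deposited length of Rxra, 6303 bases, beside 5462 exonic bases by GENCODE M21. The shift between the states does not depend on the length. The ratio of Nr1h3 to Nr1h2 per kilobase was 0.401 to 0.470 in WT_M0 and 2.09 to 2.36 in WT_M1, and 0.430 to 0.506 and 1.74 to 2.07 in cKO. That of Pparg to Ppard was 4.16 to 5.50 in WT_M0 and 0.831 to 1.22 in WT_M1, and 6.11 to 7.38 and 0.945 to 1.11 in cKO. That of Rxra to Rxrb was 0.762 to 0.869 and 1.62 to 1.66 in WT, and 0.738 to 0.993 and 1.17 to 1.94 in cKO. None of these ranges overlapped between M0 and M1, while the ratio of Rara to Rarg overlapped between the states in both genotypes. Between the genotypes, the ratio of Pparg to Ppard was higher in cKO_M0 than in WT_M0 without overlap, as was that of Rara to Rarg (1.15 to 1.48 in WT_M0 and 1.48 to 1.91 in cKO_M0, nearly touching), and that of Nr1h3 to Nr1h2 was lower in cKO_M1 than in WT_M1. With 3 libraries against 3, the two-sided exact permutation test cannot give a p below 0.1, which was 0.178 after adjustment over the 16 comparisons, so none of these differences could pass.

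**Figure D4:**
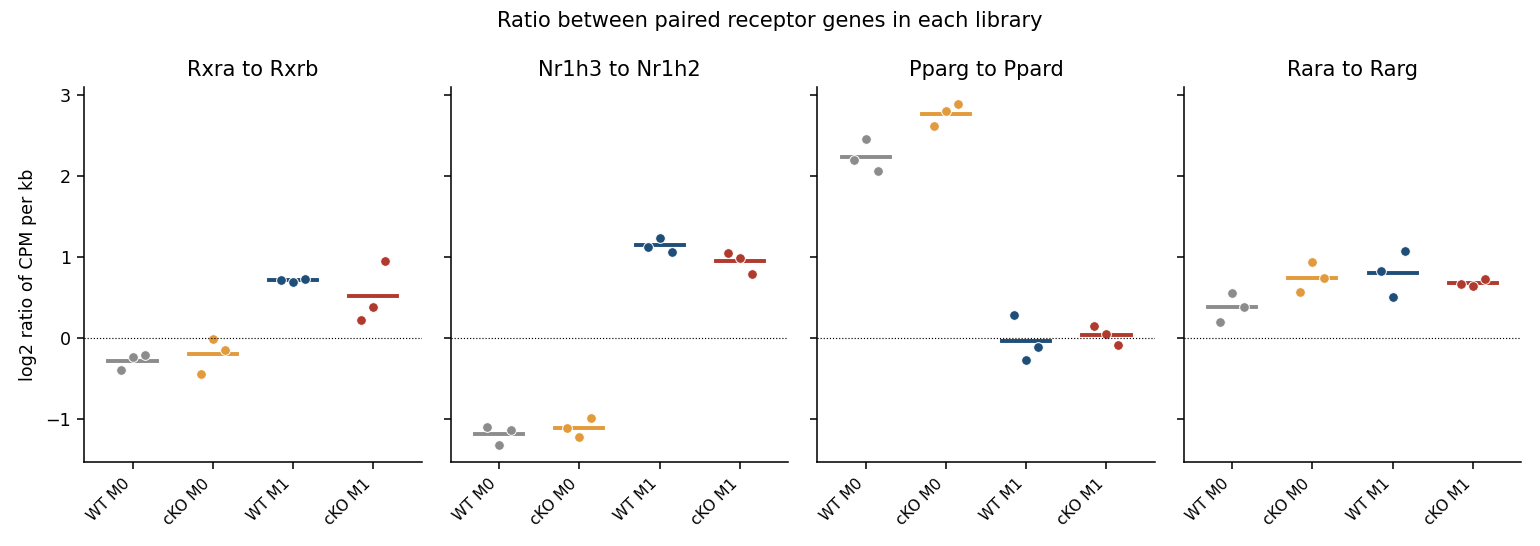
Log2 ratio of the level per kilobase within 4 pairs of receptor genes; points are libraries, bars the mean of the 3 libraries of a group, and the dotted line marks equal levels. The ratio of Nr1h3 to Nr1h2 lies below 0 in M0 and above 0 in M1, and that of Pparg to Ppard falls from above 2 to near 0.

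In unstimulated cells the median log2 fold change of the 10 genes for cKO against WT was -0.19, beside 0.01 for all tested genes. Rarg and Ppard were lower in cKO_M0 than in WT_M0, 2 of 10 genes, beside 1.61% of all tested genes, 0.662% higher and 0.953% lower. That background itself moved, from 244 genes to between 1 and 452 with 1 library left out, lowest without cKO_M0 replicate 3, and to 834 with DESeq2, 491 with limma-voom and 1182 with no filter on low counts. Rarg was at 16.7 to 19.1 CPM in WT_M0 and 13.5 to 13.8 CPM in cKO_M0 (log2 fold change -0.41, SE 0.0885, adjusted p = 0.0423). Ppard was at 26.9 to 30.3 CPM and 20.2 to 21.4 CPM (-0.47, SE 0.10, adjusted p = 0.0421). Both genes, and also Rxrb, Nr1h2 and Nr1d2, were lower in cKO_M0 without overlap, 5 of 10, beside 26.2% of all tested genes, 13.3% higher and 12.9% lower. Both calls rested on single libraries: the count was 0 without WT_M0 replicate 4 or 6, cKO_M0 replicate 2 or 3, WT_M1 replicate 12 or cKO_M1 replicate 8, and 1 without cKO_M0 replicate 1 or WT_M1 replicate 10. The other 8 genes did not pass, with log2 fold changes from -0.27 for Nr1d2 to 0.06 for Pparg, but Nr1h2 passed with DESeq2 (-0.25, adjusted p = 0.0175).

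After stimulation 4 of the 10 genes differed between genotypes, beside 18.6% of all tested genes. Rara and Rarg were higher in cKO_M1, beside 8.98% of all genes, and Nr1d2 and Ppard were lower, beside 9.67%. Rara, Rarg and Vdr were higher and Pparg and Nr1d2 lower without overlap, 5 of 10, beside 33.7% of all genes, 17.4% higher and 16.3% lower. Of all genes, 1357 were higher and 1461 lower, or 1982 and 1239 when scaled by library totals alone. Rarg stood at 8.28, 7.87 and 8.03 CPM in WT_M1 and at 13.0, 13.4 and 14.1 CPM in cKO_M1, 1.68-fold higher (log2 fold change 0.74, SE 0.0937, adjusted p = 0.00011). Rara stood at 15.1, 11.5 and 17.4 CPM and at 21.2, 21.4 and 23.9 CPM, 1.51-fold higher (0.59, SE 0.139, adjusted p = 0.00791). For both genes every cKO_M1 library was above every WT_M1 library, and the cKO_M1 means were near those of cKO_M0. The WT_M1 libraries that set this difference are those in which the 2 genes were low against WT_M0, so it is not separate evidence of that fall.

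Nr1d2 differed most of the 10 genes. Its WT_M1 libraries were at 50.9, 65.7 and 46.9 CPM and its cKO_M1 libraries at 25.8, 23.5 and 29.9 CPM. The groups were far apart, with a 2.07-fold lower level in cKO (log2 fold change -1.05, 95% interval -1.32 to -0.78, adjusted p = 9.79e-05). Without any 1 library the log2 fold change stayed between -1.16 and -0.90. The summed osteoclast, stromal and B cell markers of the same libraries were lower in cKO_M1, as given above. Among tested markers, 6 of 7 of osteoclasts, 3 of 4 of B and plasma cells and the 1 stromal marker had a negative log2 fold change. The part of these markers in this and the other genotype differences was not tested.

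Ppard was at 64.7, 80.6 and 78.5 CPM in WT_M1 and 52.3, 59.2 and 65.1 CPM in cKO_M1 (log2 fold change -0.34, SE 0.0984, adjusted p = 0.0246). The highest cKO_M1 library was above the lowest WT_M1 library, and without WT_M1 replicate 11 or 12 or cKO_M1 replicate 7 or 8 the call was lost, with an adjusted p of up to 0.0983, as it was with library totals alone (0.0511). Pparg was at 31.0, 26.3 and 28.6 CPM in WT_M1 and 22.9, 24.1 and 24.2 CPM in cKO_M1, which do not overlap, and missed the threshold (-0.27, SE 0.0919, adjusted p = 0.0520). It passed with relative log expression scaling, with DESeq2 and with the stricter filter, at adjusted p of 0.0431, 0.0256 and 0.0385.

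The LXR and retinoid X receptor genes did not pass in M1. Their log2 fold changes for cKO against WT had 95% intervals of -0.37 to 0.04 for Nr1h3, -0.13 to 0.19 for Nr1h2, -0.40 to 0.16 for Rxra and -0.15 to 0.26 for Rxrb. For Vdr the interval was -0.30 to 1.33, too wide to tell.

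Whether the knockout effect itself differed between the states was tested directly. Of the 10 genes 2 passed, beside 8.16% of all tested genes: Rarg, whose difference was 1.15 log2 units (95% interval 0.87 to 1.42, adjusted p = 0.000635), beside 4.02% of all genes in that direction, and Nr1d2, at -0.77 (-1.15 to -0.40, adjusted p = 0.0156), beside 4.14%. The same test compares the M1 response between genotypes, so the response of Rarg to stimulation was less negative, and that of Nr1d2 more negative, in cKO than in WT. Without cKO_M1 replicate 8 Nr1d2 was at -0.70 with an adjusted p of 0.0537. Rara was at 0.62 with an adjusted p of 0.0594, and passed with library totals alone, DESeq2, limma-voom or no filter on low counts (adjusted p of 0.0450, 0.0359, 0.0478 and 0.0084), and without cKO_M0 replicate 2 or WT_M1 replicate 12. Averaged over both states, Ppard at -0.40 (SE 0.0703, adjusted p = 0.00191) and Nr1d2 at -0.66 (SE 0.0882, adjusted p = 0.000364) were lower in cKO, 2 of 10 beside 15% of all genes and 8.07% lower.

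Of 39 other nuclear receptor genes, 16 had enough counts to be tested. In M1, 4 were lower in cKO and 1 higher, beside 9.67% and 8.98% of all tested genes. In M0 none passed by edgeR with its filter on low counts, DESeq2 or limma-voom, and 3 had an unadjusted p under 0.05. The smallest p belonged to Nr2c2 at -0.38 and Rora at -0.54 (edgeR, adjusted p = 0.143 and 0.149). With no filter on low counts, edgeR called 2 genes lower in cKO_M0, Nr2c2 at -0.37 and Rora at -0.53 (adjusted p = 0.0449 and 0.00394). Rora, which activates the clock genes that REV-ERB proteins repress, was 2.86-fold lower, at 17.6 ± 5.18 CPM in WT_M1 and 6.14 ± 0.957 in cKO_M1 (adjusted p = 0.000146). Nr1d1, which encodes REV-ERB alpha, was at 5.18, 10.6 and 6.39 CPM and 2.02, 2.69 and 4.27 CPM, 2.46-fold lower (adjusted p = 0.003). Its 3′ end overlaps Thra on the opposite strand, and the counting is not known to use strand, so its reads are uncertain. Nr2c2, an orphan receptor, was 1.38-fold lower and the orphan receptor Nr2f6 was 1.3-fold higher. The count of lower genes was 2 to 5 with 1 library left out, below 3 without cKO_M1 replicate 7 or 8, and Nr2f6 missed the threshold without WT_M1 replicate 10 or 11 or cKO_M1 replicate 7 or 8 (adjusted p of up to 0.132), or with no filter or its 2 groups alone. Among the responses to M1, the glucocorticoid receptor gene Nr3c1 rose 2.65-fold in WT and 2.66-fold in cKO, Esrra, which encodes an estrogen-related receptor of energy metabolism, rose 2.75-fold and 3.46-fold, and Nr4a1, an immediate early receptor gene, fell 4.59-fold and 3.61-fold. Nr0b2, a receptor without a DNA-binding domain, fell from low levels of 0.645 to 0.787 CPM in WT_M0 and 0.707 to 1.26 CPM in cKO_M0 to 0 in 5 of the 6 M1 libraries and 0.0586 CPM in the other. In all, 7 rose and 3 fell in WT (5 without WT_M1 replicate 12), beside 34.2% and 37.1% of all genes, and 6 rose and 7 fell in cKO, beside 34.2% and 36%. In cKO 4 fell with the stricter filter or the 2 groups alone, 3 to 7 fell with 1 library left out, and the count was lowest without cKO_M0 replicate 1 or cKO_M1 replicate 8. Scaled by library totals alone, 3 rose and 8 fell in WT and 4 rose and 9 fell in cKO.

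Most clock genes were lower in cKO_M1, as Nr1d2 was. Of 16 tested clock genes, 12 were lower in cKO_M1 and 1, Nfil3, was higher, beside 9.67% and 8.98% of all tested genes, with a median log2 fold change of -0.96, beside 0.02 for all tested genes. The 12 include Rora and Nr1d1, counted above. This and the other gene lists were written with earlier results of these data known, so such counts beside all genes are a description and not a test. Bhlhe41, a repressor of CLOCK, was at 98.5, 152 and 106 CPM in WT_M1 and 34.2, 30.9 and 53.8 CPM in cKO_M1, 3.00-fold lower (adjusted p = 6.22e-05). Bhlhe40, its close relative, was 3.40-fold lower, at 117 ± 31.8 and 34.3 ± 13.1 CPM (adjusted p = 0.00011). Cry1, another repressor, was 1.68-fold lower. In every one of these the libraries of the groups did not overlap. In M0, 1 of 16 clock genes passed, Dbp, an output gene of the clock, at -0.76 (adjusted p = 0.0463), beside 0.953% of all genes lower, and the median was -0.22. Dbp missed the threshold with its 2 groups compared alone (adjusted p = 0.0597), and 3 clock genes passed with no filter on low counts. Without overlap in M0, 8 of 16 were lower and 1 higher in cKO, beside 12.9% and 13.3% of all genes. Averaged over both states, 11 of 16 passed, all lower in cKO, beside 8.07% of all genes lower. The difference of the effect between the states passed for 6 of 16, all more negative in M1, beside 4.14% of all genes in that direction. Leaving out 1 library at a time gave 11 to 12 lower genes in M1 and 0 to 2 in M0, where the count changed without any of the 8 libraries on which Rarg's call rested. Nfil3 missed the threshold without WT_M1 replicate 10 or 11 or cKO_M1 replicate 7 or 8. With M1 stimulation, 9 clock genes rose and 5 fell in WT, beside 34.2% and 37.1% of all genes, and 7 rose and 7 fell in cKO, beside 34.2% and 36%; Nfil3, which opposes Dbp, rose 5.88-fold and 7.91-fold, Cry1 4.27-fold and 2.71-fold, and Per1 4.10-fold and 3.20-fold, while Per3 fell 11-fold and 10.5-fold. Scaled by library totals alone, 7 rose and 7 fell in WT and 5 rose and 9 fell in cKO. The hours at which the cultures were collected are not given, so time of day was not compared.

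**Figure D5:**
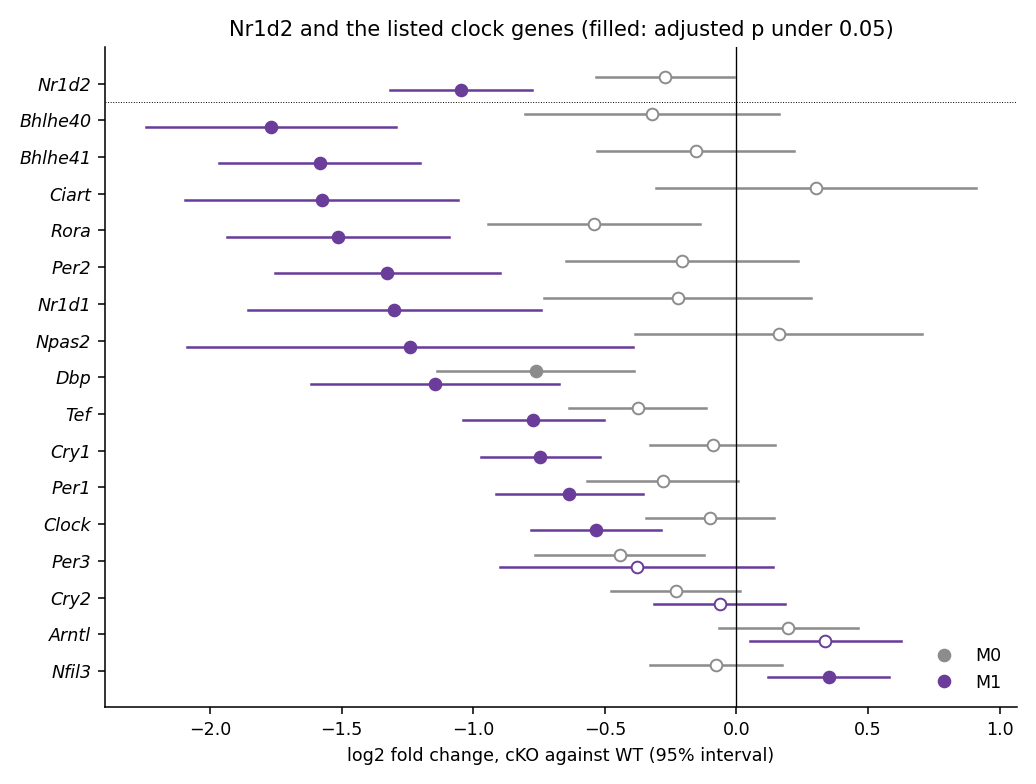
Log2 fold change of cKO against WT with its 95% interval for Nr1d2 and the 16 tested clock genes, in M0 (grey) and M1 (purple), ordered by the value in M1; filled points have an adjusted p under 0.05. In M1, 12 listed genes and Nr1d2 are filled and lie below 0, and 1, Nfil3, is filled above 0.

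LXR target genes moved in both directions with stimulation. Of 15 tested, 4 rose and 8 fell in WT M1, and 5 rose and 8 fell in cKO M1, 12 and 13 in all beside 71.4% and 70.2% of all genes, with medians of -0.60 and -0.34. Scaled by library totals alone, 3 rose and 11 fell in WT and 4 rose and 10 fell in cKO. Mertk, a receptor for apoptotic cells, rose 5.53-fold in WT, from 65.0 ± 8.87 to 360 ± 4.56 CPM, and 10.2-fold in cKO. Fasn, the fatty acid synthase, fell 12.2-fold and 12.5-fold, Acsl3, an acyl-CoA synthetase, fell 4.12-fold and 6.48-fold, and Cd5l, a secreted macrophage survival protein, fell 3.09-fold and 4.81-fold. Between genotypes in M1, 2 were higher and 6 lower, beside 8.98% and 9.67% of all genes, with a median of -0.16: Rnf145, a ubiquitin ligase that acts on sterol sensing, was 2.48-fold higher in cKO_M1, and Mylip, which degrades the LDL receptor, 1.93-fold lower, with Cd5l 1.5-fold and Acsl3 1.59-fold lower. In M0, 2 were lower, beside 0.953% of all genes, and none higher, Mertk at -0.72 (adjusted p = 0.0103) and Pltp, a phospholipid carrier, at -0.37 (adjusted p = 0.0478), while DESeq2 and the fit with no filter called 4. Leaving out 1 library gave 0 to 3, with a change without any of the 8 libraries on which Rarg's call rested. The count of genes higher in cKO_M1 was 1 without WT_M1 replicate 11 or cKO_M1 replicate 8, and with the 2 groups compared alone.

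Sterol supply genes fell with stimulation: of 12 tested, 8 fell and 2 rose in WT, beside 37.1% and 34.2% of all genes, and 9 fell and 1 rose in cKO, beside 36% and 34.2%, with medians of -1.96 and -1.87. The cholesterol synthesis genes Idi1, Sqle and Cyp51 fell 24.2-fold, 7.49-fold and 8.86-fold in WT. In cKO they fell 24.6-fold, 9.05-fold and 8.74-fold. Between genotypes in M1, 2 were higher and 2 lower, beside 8.98% and 9.67% of all genes: Ch25h, which makes 25-hydroxycholesterol, was 2.89-fold higher and Cyp27a1, which makes 27-hydroxycholesterol, 1.56-fold higher in cKO_M1, the latter not called without WT_M1 replicate 10 or 12 or cKO_M1 replicate 8 or 9 (adjusted p of up to 0.186) or by limma-voom, with counts halved or with its 2 groups alone. Insig1, which holds sterol synthesis in check, was 1.87-fold lower. In M0 none of the 12 passed by edgeR on the deposited counts with its filter on low counts. An unadjusted p under 0.05 was found for 2, Cyp27a1 at -0.50 and Hmgcs1, of cholesterol synthesis, at -0.22 (edgeR, adjusted p = 0.0805 and 0.180). Cyp27a1 was called lower in cKO_M0 by DESeq2 and limma-voom (adjusted p = 0.0223 and 0.0356). It was also called lower there by edgeR with no filter or with halved counts (adjusted p = 0.00385 and 0.0478).

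PPAR target genes split evenly. Of 14 tested, 7 rose and 7 fell in WT M1, beside 34.2% and 37.1% of all genes, and 6 rose and 6 fell in cKO M1, beside 34.2% and 36%; scaled by library totals alone, 3 rose and 9 fell in each. Plin2, which coats lipid droplets, rose 4.45-fold and 3.44-fold, and Slc25a20, a carnitine carrier, rose 2.0-fold in cKO. Angptl4, a secreted inhibitor of lipoprotein lipase, fell 15.3-fold and 7.30-fold, Acaa2 of fatty acid oxidation fell 2.69-fold and 2.23-fold, and Acadm, of the same pathway, fell 3.25-fold in WT. Between genotypes in M1, 2 were higher and 2 lower, beside 8.98% and 9.67% of all genes. Fabp4, a fatty acid carrier, was at 88.6, 115 and 76.7 CPM in WT_M1 and 37.7, 28.0 and 38.0 CPM in cKO_M1, 2.70-fold lower (adjusted p = 0.000302), and Acadl was 1.33-fold lower. Angptl4 was 2.26-fold higher and Acadm 1.29-fold higher, the latter not called without WT_M1 replicate 11 or cKO_M1 replicate 7 or 8 (adjusted p of up to 0.097) or with its 2 groups alone. In M0 none of the 14 passed by edgeR with its filter on low counts or by limma-voom, and 2 did by DESeq2. An unadjusted p under 0.05 was found for 3, led by Cd36, a fatty acid and lipoprotein receptor, at 0.26 and Plin2 at 0.28 (edgeR, adjusted p = 0.119 and 0.120). With no filter on low counts edgeR called 1 higher, Plin2 at 0.29 (adjusted p = 0.0321).

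Retinoid genes were few. Of 21 listed, 9 were tested, and in WT M1 2 rose and 5 fell, in cKO 2 rose and 6 fell, 7 and 8 of 9 beside 71.4% and 70.2% of all genes. Tgm2, a transglutaminase induced by retinoic acid, rose 13.4-fold and 15.6-fold, and Stra6l, a relative of the retinol transporter STRA6, rose 6.90-fold and 5.04-fold. Dhrs3, which turns retinal back to retinol, fell 2.46-fold and 3.54-fold, and Rdh10, which makes retinal, fell 3.09-fold and 3.10-fold. Stra6l and Dhrs3 were the 2 genes lower in cKO_M1, beside 9.67% of all genes. Stra6l was at 81.5, 84.8 and 80.8 CPM in WT_M1 and 37.2, 34.2 and 45.9 CPM in cKO_M1, 2.11-fold lower (adjusted p = 9.34e-05), with no overlap; it was also lower in cKO_M0, at -0.62 (adjusted p = 0.0442), a call lost without any 1 WT_M0 library, cKO_M0 replicate 2 or 3, WT_M1 replicate 10 or 12 or cKO_M1 replicate 8 (adjusted p of up to 0.227) or with its 2 groups alone. Dhrs3 was 1.54-fold lower in cKO_M1. Of the 4 vitamin D enzyme genes 2 were tested: Cyp27a1, which is also on the sterol list, fell 22.2-fold in WT and 10.1-fold in cKO, and Cyp2r1, a vitamin D 25-hydroxylase, fell 2.08-fold in WT, but not without WT_M0 replicate 4 or WT_M1 replicate 10 or 11 (adjusted p of up to 0.0611).

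Coregulators, the proteins through which nuclear receptors repress or activate genes, were also tested. Of 17 tested, 2 were lower in cKO_M1, beside 9.67% of all genes, and none higher, beside 8.98%. These were Gps2, 1.26-fold lower, and Lcor, 1.38-fold lower, which missed the threshold with library totals alone (adjusted p = 0.0601). In M0 none passed by edgeR, DESeq2 or limma-voom, with 1 at an unadjusted p under 0.05, Ncoa2 at -0.28, followed by Ncoa1 at -0.20 (edgeR, adjusted p = 0.211 and 0.319). Leaving out 1 library gave 0 to 5 lower in M1, fewer than 2 without WT_M0 replicate 6, cKO_M0 replicate 3, WT_M1 replicate 10 or 11 or cKO_M1 replicate 7 or 8. In WT M1, 8 rose and 4 fell (2 without WT_M0 replicate 5), beside 34.2% and 37.1% of all genes, and in cKO 9 rose and 4 fell, beside 34.2% and 36%; scaled by library totals alone, 2 rose and 9 fell in WT and 3 rose and 8 fell in cKO. Ppargc1b, a coactivator of mitochondrial genes, rose 6.20-fold and 5.97-fold, Lcor, a corepressor, 4.26-fold and 2.98-fold, and Ncoa1, a coactivator, 1.60-fold and 1.76-fold. Med1, a Mediator subunit, rose 1.63-fold in WT, and the acetyltransferase gene Crebbp 1.71-fold in cKO. Scaled by library totals alone, Med1 and Ncoa1 in WT and Crebbp in cKO did not pass (adjusted p = 0.212, 0.401 and 0.0580).

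Across the 12 libraries, the genes with the pattern most like each receptor were found by Pearson's r of log2 CPM over 9247 genes of at least 5 CPM. The 12 points fall into 4 groups and are not 12 separate conditions. For some receptors very many genes had an r over 0.95: 1702 with Nr1h3, 1439 with Nr1h2, 918 with Ppard and 917 with Pparg. Closest to Nr1h3 were Fgl2, Rnf19b and Tapbpl (0.999, 0.998 and 0.998), to Nr1h2 Vps9d1, Mllt6 and Rab43, to Ppard Fkbp15, Sowahc and Psap, and to Pparg St14, Cd5l and Cdk19. For the others few genes had an r over 0.95: 6 for Nr1d2, led by Blnk at 0.989, Klf9 at 0.978 and Itgb3 at 0.970. Rarg had 5, led by Rassf4 at 0.976, Nab2 at 0.968 and Smim19 at 0.957. Rara had 18, led by Zfp710, Dido1 and Lrrc14, Rxrb 10, led by Cdk5rap3, Cyp4f18 and Zfp90, and Rxra 1, Zfp598 at 0.952, followed by Zfp865 and Sppl3. Vdr had none, with Gtf3c5, Tmem39b and Med27 closest at 0.777, 0.764 and 0.753.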

How the data were processed

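The authors sequenced RNA of macrophages in 4 labelled groups of 3 libraries and deposited 1 table of raw counts per gene with a gene length. The tools they list are featureCounts 2.0.3, SAMtools 1.16.1, HISAT2 2.2.1 and Trimmomatic 0.39, and the build is GRCm39, per the submitters' processing notes; strand option and annotation: not given in the sources used here. Of the values from 1 to 10, 60.9% were even, where about 50% would be usual, so counts were also halved as an alternative. Symbols matched 52073 of 56980 gene IDs, and the others held at most 0.243% of a library's counts.

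In R 4.3.3, edgeR 4.0.16 kept genes with filterByExpr (minimum count 10, minimum total 15), scaled libraries with TMM factors, which averaged 1.21, 1.22, 0.808 and 0.840 in WT_M0, cKO_M0, WT_M1 and cKO_M1, and fitted 1 mean per group to all 12 libraries. Contrasts were tested with its quasi-likelihood F-test, with Benjamini-Hochberg adjustment over all 15110 tested genes and a threshold of 0.05. The script was tested on simulated data with few changed genes, so not on a broad shift like that of M1 against M0. Levels are TMM-scaled CPM, divided by length in kilobases, from the deposited length column, where genes are compared. Pair ratios were tested with exact permutation tests. Replicates of a group differed by more than sampling noise, so each was counted. Total counts per library were about equal, and errors cover the spread between libraries.

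The members and gene lists were chosen with earlier results of these data known. From each pathway list (other nuclear receptors, LXR targets, PPAR targets, retinoid genes, vitamin D enzymes, clock genes, sterol supply and coregulators) the text names, in each comparison of 2 groups, up to 4 genes that passed, by smallest p, or 2 where none passed, and from marker lists up to 3 of the highest level. Alternatives were relative log expression scaling, library totals alone, DESeq2 1.42.0, limma-voom (limma 3.58.1), no filter, a filter of 50 counts in 3 libraries, halved counts, the 2 groups alone, and each library left out; applying them to the lists was chosen after seeing the data. The GENCODE M21 annotation was used for overlaps of exons and RefSeq's GRCm38.p6 table for promoters. The genome of GRCm39 and protein sequences were not used here. Some genes that the rule selects are not reported here by name.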

Additional observations from a re-analysis of the deposited data

Results flagged for a closer look

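The knockout effect on 2 receptor genes differed between the states by the test of that difference. For Rarg, cKO against WT was lower in M0 and higher in M1, and the effects differed by 1.15 log2 units (edgeR, adjusted p = 0.000635). Its M0 call, at an adjusted p of 0.0423 by edgeR, rested on single libraries, as given above. All 3 cKO libraries were lower than all WT libraries in M0 and all 3 were higher in M1. Groups without overlap were found for 26.2% of all tested genes in M0 and 33.7% in M1. For Nr1d2, cKO was lower in all 3 libraries in both states, more so in M1, and the effects differed by -0.77 log2 units (adjusted p = 0.0156), which became -0.70 with an adjusted p of 0.0537 without cKO_M1 replicate 8. The summed osteoclast markers, at 182 to 249 CPM in cKO_M0 and 105 to 146 CPM in cKO_M1, were below WT in both states. The low stromal and osteoblast sums were too, but nearly touched those of WT in M0. The part of these markers in the differences was not tested.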

How the results depend on the processing

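The replicate numbers of the 4 groups do not overlap and do not say whether M0 and M1 cultures shared donor mice. No paired analysis was therefore made, and the tests treated all libraries as separate. Every call in M1 against M0 for Nr1h3, Nr1h2, Ppard, Pparg and Rxrb, and in cKO against WT in M1 for Rarg, Rara and Nr1d2, kept its direction and passed under every alternative. Library totals alone turned Rxra to -0.21 in WT and -0.17 in cKO, Nr1d2 in WT to -0.38, called lower, and Vdr in cKO to -0.015, called 4 members in the mean effect, and split the difference of effects into 796 higher and 519 lower genes, in place of 608 and 625, and the mean effect into 1557 and 1041, in place of 1042 and 1220. By limma-voom, uncalled Vdr turned to 0.090 in M1 against M0 in WT and to 0.093 in cKO against WT in M0. In the difference of effects, Nr1h3 turned to -0.0059, -0.0094 and -0.024 under relative log expression scaling, DESeq2 and no filter, and Rxra to 0.048, 0.0044 and 0.00023 under library totals, the stricter filter and halved counts, none of them called. Leaving out 1 library gave 0 to 2 members called in cKO against WT in M0 and 1 to 3 in the difference of effects. The same turned signs only of uncalled values: in M1 against M0, Vdr in WT ranged from -0.39 to 0.45, and Rara and Rarg in cKO from -0.19 to 0.0035 and from -0.043 to 0.017. In cKO against WT they were Rara and Vdr in M0, from -0.13 to 0.065 and -0.39 to 0.46, and Rxrb and Nr1h2 in M1, from -0.036 to 0.13 and -0.015 to 0.045. In the difference of effects, Rxra ranged from -0.18 to 0.080 and Nr1h3 from -0.059 to 0.11. The log2 ratio of Rxra to Rxrb in cKO against WT in M0 ranged from -0.013 to 0.20, that of Rara to Rarg from -0.16 to 0.024 in M1 against M0 in cKO and from -0.28 to 0.0053 in cKO against WT in M1, and that of Pparg to Ppard there from -0.046 to 0.23. The cause of these changes was not tested. Among the 10 genes depth limits mainly Vdr, at 16 to 52 counts per library.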

Other observations

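Markers of other cell types not given above were low, and are summed here over each list in WT_M0, cKO_M0, WT_M1 and cKO_M1. Neutrophil markers summed to 1.08 to 2.99, 1.08 to 2.27, 6.49 to 11 and 7.30 to 16.2 CPM, and dendritic cell markers to 0.819 to 0.905, 0.589 to 1.22, 4.09 to 4.57 and 3.34 to 4.6 CPM. T and NK cell markers, with 3 of 6 at 0 in all libraries, reached at most 0.400 CPM in any library, mast cell and basophil markers, with 2 of 5 at 0, at most 0.280 CPM, and erythroid markers, with 2 of 6 at 0, at most 0.341 CPM.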
